A study of Homo sapiens with 6 samples.

Results

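The EGF receptor family and its ligands were followed in MDA-MB-231 cells after exposure to the kinase inhibitor DCC-2036. The set was defined by gene symbol and held 10 genes, the 4 receptors EGFR, ERBB2, ERBB3 and ERBB4 and the 6 ligands AREG, EREG, HBEGF, TGFA, BTC and EGF. All 10 were measured, by 14 of the 45033 transcript records on the array, and they stood among 17185 genes with a name. For 9 genes the name came from the platform's annotation and for AREG from the RefSeq accession of its record. Where a gene had several records, the one with the highest mean over the 6 arrays stood for it. The treated group was 3 cultures given DCC-2036 at 3.75 μM for 48 h, and the control group was 3 cultures at 0 μM for the same time. MDA-MB-231 is an established human triple-negative breast cancer line, so every value describes 1 line in culture, in DMEM. DCC-2036, or rebastinib, inhibits ABL1 and several other tyrosine kinases.

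Ligands of this family are made as membrane-anchored precursors, cut free by metalloproteases of the ADAM family, and bind receptors that then pair and phosphorylate each other. Amphiregulin (AREG), TGF-alpha (TGFA) and EGF bind EGFR, whereas epiregulin (EREG), heparin-binding EGF-like growth factor (HBEGF) and betacellulin (BTC) bind EGFR and ERBB4. ERBB2 has no known ligand of its own and works as a partner, ERBB3 has a weak kinase and binds neuregulins, and the chief outputs are the RAS-ERK and PI3K-AKT pathways.

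The arrays were alike in scale, with median intensities of 267 to 273 in treated and 265 to 274 in control cultures, and across genes the log2 values correlated at 0.964 to 0.978 within a group and 0.929 to 0.937 across groups. Of 4 markers usually high in this line (VIM, CD44, MSN and AXL), 4 had means above the median of all records. Of 6 luminal or hormone-receptor markers, 4 (ESR1, PGR, CDH1 and FOXA1) lay in the dimmest 25% of records. GATA3 and KRT8 had means above the median, and KRT8 was bright, with a mean of 6607 in control and 15549 in treated cultures. Some of these markers changed with DCC-2036 alongside the ligands: AXL (-1.56 ± 0.16), GATA3 (-0.68 ± 0.15) and VIM (-0.51 ± 0.14) fell and KRT8 rose (1.24 ± 0.17) on the log2 scale, with limma adjusted p-values of 0.0017, 0.0206, 0.04 and 0.00385, while the other 6 did not pass. The VIM call was lost without any one array (-0.57, -0.45 and -0.52 without DCC-2036 replicates 1, 2 and 3, -0.50, -0.57 and -0.46 without control replicates 1, 2 and 3), and the GATA3 call on leaving out treated replicates 2 (-0.60) or 3 (-0.66) or control replicates 1 (-0.63) or 2 (-0.68). The part of these markers in the changes of the EGF family was not tested. The files give no detection call, so a record in the dimmest 25%, with a mean intensity under 74.1, was not called absent, and its values may be mostly background.

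The ligands split, and the receptors gave no call. AREG, EREG and HBEGF fell 9.77-fold, 4.69-fold and 3.64-fold with DCC-2036, while TGFA, BTC, EGF and the 4 receptors did not pass the test. With limma and Benjamini-Hochberg adjustment over 17185 genes (threshold 0.05), 0 of the 10 genes rose and 3 fell, and 4 had an unadjusted p under 0.05. Over all genes 16% were called lower and 13.1% higher, so 3 lower of 10 stood beside a background of 16%. The same 3 genes were those whose treated and control values did not overlap, which held for 46.5% of all genes. The median log2 change was -1.17 over the 6 ligands and -0.05 over the 4 receptors, against 0.02 over all genes. The labels call the 3 experiments independent. RNA came from whole cultures, so a fall in every cell and a fall in part of the cells cannot be told apart.

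**Figure D1:**
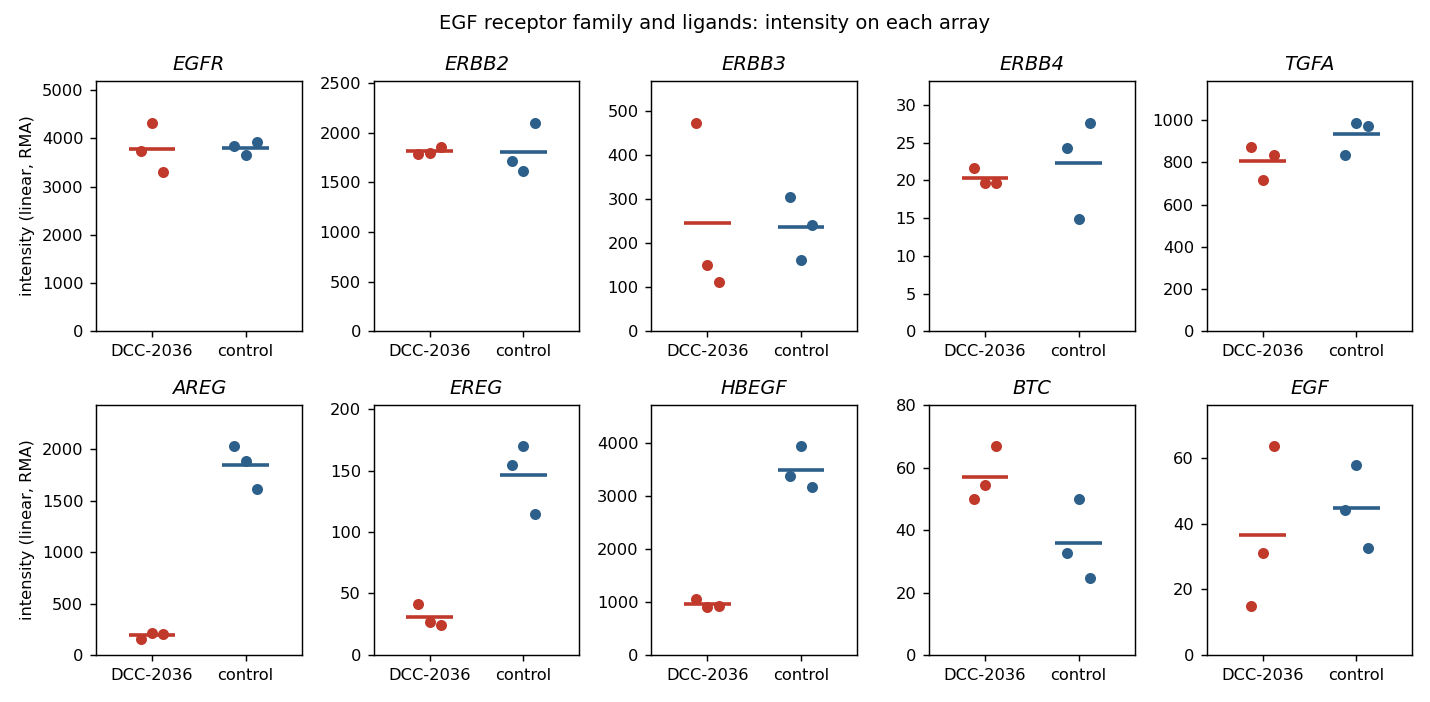
Intensity of the 10 genes on each array, on a linear axis from 0 with its own scale in each panel; points are single arrays (replicates 1 to 3 from left to right), and bars are group means, with DCC-2036 left of control. AREG, EREG and HBEGF are separate between the groups, and the points of the other 7 genes overlap.

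The starts of the 3 genes that fell are shown because they moved together; each line gives the 250 bases before the gene's start on the gene's own strand (RefSeq, GRCh38.p14), AREG at chr4:74444886-74445135 on the plus strand, EREG at chr4:74364895-74365144 on the plus strand and HBEGF at chr5:140346604-140346853 on the minus strand. Capitals mark matches to any of 5 searched motifs.
AREG: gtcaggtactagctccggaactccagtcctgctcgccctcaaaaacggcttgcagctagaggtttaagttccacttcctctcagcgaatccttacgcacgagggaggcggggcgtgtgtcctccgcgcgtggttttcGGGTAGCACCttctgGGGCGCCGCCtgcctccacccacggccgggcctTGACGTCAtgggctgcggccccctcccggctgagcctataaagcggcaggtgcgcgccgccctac
EREG: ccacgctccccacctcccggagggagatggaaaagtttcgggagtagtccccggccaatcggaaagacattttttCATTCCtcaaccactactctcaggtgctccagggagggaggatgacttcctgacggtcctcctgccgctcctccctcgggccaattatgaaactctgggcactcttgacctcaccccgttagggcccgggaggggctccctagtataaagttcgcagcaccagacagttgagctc
HBEGF: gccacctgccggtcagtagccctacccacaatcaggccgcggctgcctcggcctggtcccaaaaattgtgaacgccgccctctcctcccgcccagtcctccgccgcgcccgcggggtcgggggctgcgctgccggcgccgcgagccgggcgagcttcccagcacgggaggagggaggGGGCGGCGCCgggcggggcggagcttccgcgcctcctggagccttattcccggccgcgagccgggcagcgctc

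The motifs were AP-1 (TGANTCA), the cyclic AMP response element CRE (TGACGTCA), TEAD (GGAATG), NF-kB (GGG and CC on either side of any 5 bases) and the SRF-binding CArG box, each searched on both strands. The CRE occurred once in the AREG window, at -65 to -58 from the start, and in 1.63% of 34943 windows of the same length. AREG also held the loose NF-kB pattern at -113 to -104 and at -98 to -89, and HBEGF held it at -73 to -64; 54.4% of windows did. EREG held the TEAD letters at -175 to -170, reading CATTCC on the gene's strand, as did 11.9% of windows. None of the 5 motifs was present in all 3 windows. AP-1 letters were found in 6.59% of all windows and a CArG box in 1.16%, and neither in these 3. Some of the same letters also lay before members without a call. The NF-kB pattern was in windows of TGFA, BTC, EGF, EGFR and ERBB4, and the TEAD letters in windows of EGF and EGFR. No factor binding was measured here, and the matches are descriptions of the letters.

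AREG, a low-affinity ligand of EGFR, changed the most. Its intensity was 152, 218 and 199 in DCC-2036 replicates 1, 2 and 3, against 2029.6, 1891 and 1620.0 in control replicates 1, 2 and 3. The groups were far apart, with every treated value under every control value. The mean was 189 ± 33.9 in treated and 1847 ± 208 in control cultures (SD, n = 3 each), a log2 change of -3.29 ± 0.19 (SE, limma adjusted p = 0.000608, 95% interval -3.75 to -2.83). Ordered by log2 change, AREG was number 26 from the bottom of 17185 genes.

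HBEGF, the ligand that also serves as the diphtheria toxin receptor, had intensities of 1055, 897 and 923 in DCC-2036 replicates 1, 2 and 3, against 3379, 3938 and 3171 in control replicates 1, 2 and 3. Treated cultures lay close together and under all control cultures. The means were 958 ± 84.6 with DCC-2036 and 3496 ± 397 in control (SD, n = 3 each), a log2 change of -1.86 ± 0.16 (limma adjusted p = 0.0011). It ranked 376 from the bottom.

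EREG, epiregulin, was dimmer. Its intensity was 41.0, 26.7 and 24.6 in DCC-2036 replicates 1, 2 and 3, against 155, 169.6 and 115 in control replicates 1, 2 and 3. The groups did not overlap, and the treated mean, 30.8 ± 8.95, lay under the limit of the dimmest 25% of records, while the control mean, 146 ± 28.5 (SD, n = 3 each), lay above it. The log2 change was -2.23 ± 0.25 (limma adjusted p = 0.00237), and -1.80 when 16 rather than 1 was added. The treated values are low, though above the lowest value on the arrays (8.03), and the fold depends on the value added. It ranked 181 from the bottom.

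TGFA, a high-affinity EGFR ligand, did not follow. It had 871, 716 and 833 in DCC-2036 replicates 1, 2 and 3, against 837, 988 and 972 in control replicates 1, 2 and 3. One control value, replicate 1, lay within the treated range. The log2 change was -0.21 ± 0.15 (limma adjusted p = 0.356), with a 95% interval of -0.58 to 0.16, an interval that leaves out falls of the size seen for AREG, EREG or HBEGF.

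BTC, betacellulin, had dim values of 50.0, 54.4 and 66.8 in DCC-2036 replicates 1, 2 and 3, against 32.7, 50.1 and 24.8 in control replicates 1, 2 and 3. The groups touched at control replicate 2. Its log2 change was 0.70 ± 0.28 with an unadjusted p of 0.042, which did not pass after adjustment (limma adjusted p = 0.107). Without control replicate 2 the change was 0.97 and passed (limma adjusted p = 0.0376), the lone call among its 14 alternative settings. EGF itself had 14.9, 31.2 and 63.6 in DCC-2036 replicates 1, 2 and 3, against 44.1, 58.0 and 32.7 in control replicates 1, 2 and 3, a wide scatter in both groups. Its log2 change of -0.48 ± 0.51 had a 95% interval of -1.72 to 0.76, which spans a fall of more than 2-fold. BTC and EGF both lay in the dimmest 25% of records.

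Several of these ligand genes lie side by side. On chromosome 4 the protein-coding genes EPGN, EREG, AREG and BTC follow each other in that order in the RefSeq annotation, between MTHFD2L and PARM1. Within this row of 4 genes, the calls were in the inner pair, at -2.23 for EREG and -3.29 for AREG on the log2 scale. The outer pair gave 0.30 ± 0.36 for EPGN, epigen (limma adjusted p = 0.578), and 0.70 for BTC, neither passing. EPGN had 227, 123 and 84.0 in DCC-2036 replicates 1, 2 and 3, against 100.02, 125 and 100.3 in control replicates 1, 2 and 3. The flanking genes gave 0.68 ± 0.56 for MTHFD2L, a mitochondrial folate enzyme, and 0.04 ± 0.41 for PARM1, a mucin-like membrane protein, again without a call, and their records and that of BTC were in the dimmest 25%. The next protein-coding gene past MTHFD2L, the chemokine gene CXCL2, also fell, with 212, 752 and 955 in DCC-2036 replicates 1, 2 and 3, against 4856, 3840.4 and 4818 in control replicates 1, 2 and 3 (-3.07 ± 0.55, limma adjusted p = 0.00968; -2.40 without DCC-2036 replicate 1). Lower calls in this stretch were thus not limited to the ligand genes, beside 16% of all genes called lower. CXCL2 was chosen after its value was seen, and genes past PARM1 on the other side are not given here.

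Within-array ratios were used to compare the ligands with each other, since the level of one record cannot be set against another's. The log2 change of AREG minus that of HBEGF was -1.43, minus that of EREG -1.06 and minus that of TGFA -3.08, with no overlap between treated and control arrays in any of these ratios. HBEGF and TGFA differed by -1.65, again with no overlap. EREG and HBEGF differed by -0.37, with overlapping arrays. Against the neighbours, AREG differed from BTC by -3.99 and from EPGN by -3.59, and EREG from BTC by -2.93 and from EPGN by -2.53, each with no overlap. In the 10 pairs examined, chosen after the values were known, the exact two-sided permutation test of 3 against 3 arrays gave p = 0.1 for every ratio but that of EREG to HBEGF (p = 0.2). The smallest p this design allows is 0.1, and the adjusted values over the 10 pairs were 0.111 and 0.2, so none of these differences could pass a threshold of 0.05.

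None of the 4 receptors passed. EGFR, the receptor that binds all 6 ligands, had 3740.1, 4326 and 3299 in DCC-2036 replicates 1, 2 and 3, against 3850.02, 3660.2 and 3919 in control replicates 1, 2 and 3. The control values lay inside the treated range. The log2 change was -0.02 ± 0.16, with a 95% interval of -0.39 to 0.36 (limma adjusted p = 0.95). The within-array ratio of AREG to EGFR differed by -3.27, with no overlap (exact permutation p = 0.1, the smallest this design allows). Because EGFR changed by only -0.02, this ratio mostly repeats the fall of AREG.

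EGFR had 4 records. The record of the full-length receptor, NM_005228, had 969.6, 518 and 696 in DCC-2036 replicates 1, 2 and 3, against 797, 866 and 616 in control replicates 1, 2 and 3, and changed by -0.09 ± 0.27. The other records, NM_201282, NM_201283 and NM_201284, belong to shorter transcripts that encode receptor ectodomains without the kinase. They changed by -0.02, 0.26 and 0.00, and none of the 4 records passed over all records tested (adjusted p = 0.827, 0.952, 0.323 and 0.997 in the order NM_005228, NM_201282, NM_201283, NM_201284). The brightest record, used for the gene, is thus one of a shorter form, and the full-length record had the wider interval, from -0.74 to 0.55.

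ERBB2, the ligandless partner known as HER2, had 1788, 1794 and 1861 in DCC-2036 replicates 1, 2 and 3, against 1713, 1618 and 2102 in control replicates 1, 2 and 3. All treated values lay within the control range. Its log2 change was 0.01 ± 0.16 (limma adjusted p = 0.964, 95% interval -0.36 to 0.39). ERBB3, the neuregulin receptor with a weak kinase, was scattered, with 474, 150.2 and 113 in DCC-2036 replicates 1, 2 and 3, against 306, 163 and 242 in control replicates 1, 2 and 3. DCC-2036 replicate 1 was above every other array and the other treated arrays were below all controls, so the change of -0.19 ± 0.56 had an interval from -1.54 to 1.15. Its second record, NM_001005915, a short secreted form, changed by 0.25 ± 0.33. The intervals of both ERBB3 records, the second from -0.55 to 1.05, reach past a 2-fold change. ERBB4, a receptor for neuregulins and for HBEGF, EREG and BTC, had 21.6, 19.6 and 19.7 in DCC-2036 replicates 1, 2 and 3, against 24.3, 14.9 and 27.6 in control replicates 1, 2 and 3. Its values were among the dimmest on the array, and its log2 change was -0.09 ± 0.24 (limma adjusted p = 0.818).

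**Figure D2:**
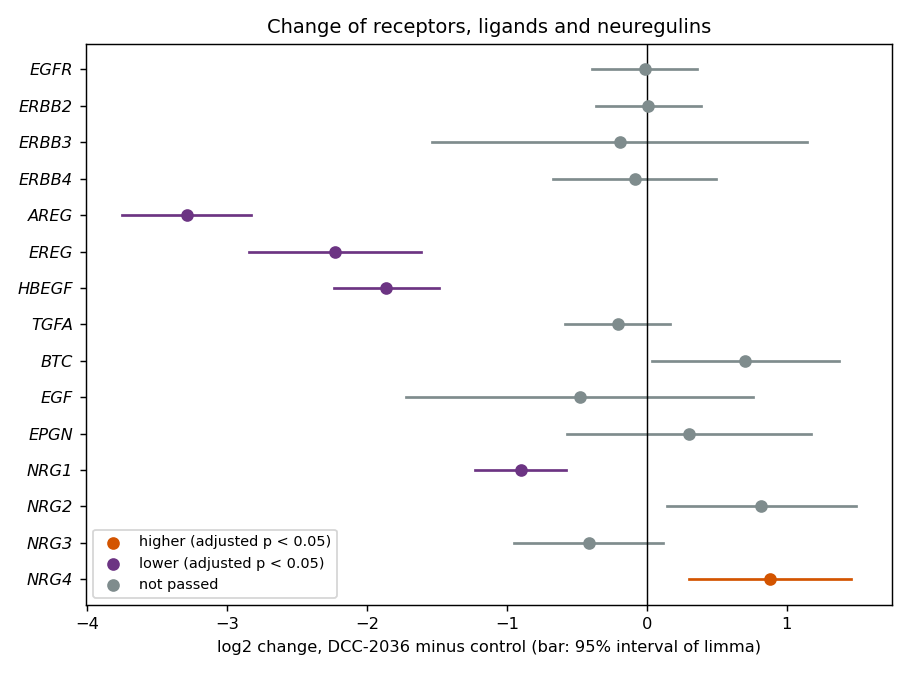
Log2 change (DCC-2036 minus control) of the 10 genes and of the 5 other EGF-like ligands, with the 95% interval from limma; colours mark genes called lower, called higher or not passed at an adjusted p of 0.05. AREG (-3.29), EREG (-2.23) and HBEGF (-1.86) stand left of the receptors, whose points lie near 0, and NRG1 (-0.90) lies between them.

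The other EGF-like ligands are EPGN and the neuregulins, of which the neuregulins bind ERBB3, ERBB4 or both. Of these 5 genes, 1 rose (20%, beside 13.1% of all genes), 1 fell (20%, beside 16%) and 3 did not pass. NRG1, neuregulin 1, had 1348, 1509.6 and 1517 in DCC-2036 replicates 1, 2 and 3, against 2675, 2834 and 2664 in control replicates 1, 2 and 3. Every treated culture was below every control culture, and the log2 change was -0.90 ± 0.13 (limma adjusted p = 0.00513). NRG1 had 7 records, of which 4 fell, 0 rose and 3 did not pass over all records, where 13.5% of records were called lower. The record NM_004495 fell the most, with 13.8, 38.8 and 23.5 in DCC-2036 replicates 1, 2 and 3, against 173, 151 and 128 in control replicates 1, 2 and 3, a log2 change of -2.63 ± 0.36, and the others lay between -1.15 (NM_013959) and -0.17 (NM_013960). The treated mean of NM_004495 was 25.4, under the 74.1 limit of the dimmest 25% of records, so dim signal limits its fold. NRG4 was the higher gene (0.88 ± 0.24, limma adjusted p = 0.0367), from very dim values of 23.1, 30.1 and 40.0 with DCC-2036 against 16.2, 13.4 and 18.8 in control. Its call was lost with 16 added before the log (0.54), with the trend and robust variance (0.88), on leaving out treated replicates 2 (0.89) or 3 (0.69), and on leaving out control replicates 1 (0.89), 2 (0.76) or 3 (0.99).

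**Figure D3:**
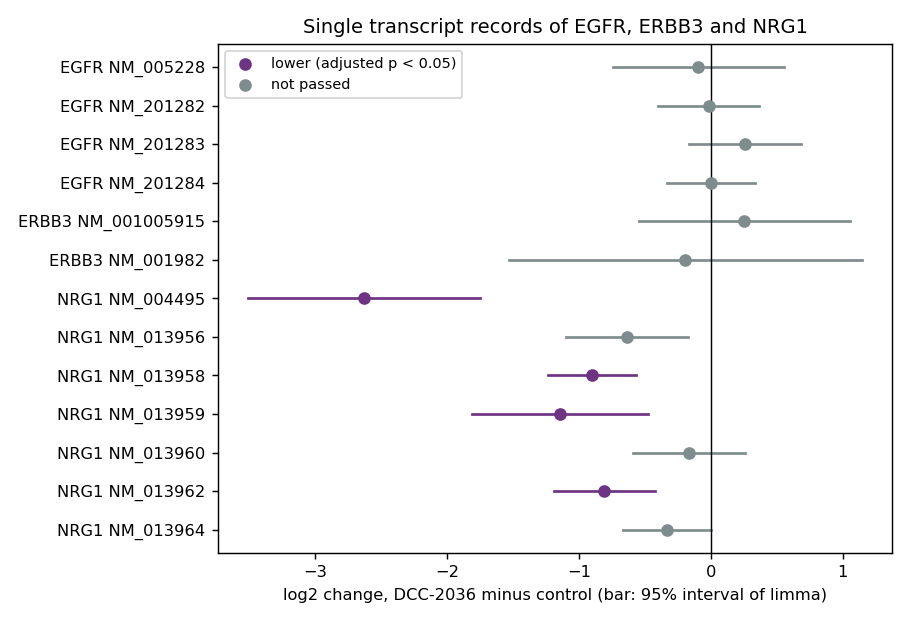
Log2 change (DCC-2036 minus control) of each transcript record of EGFR, ERBB3 and NRG1, with the 95% interval from limma over all 45033 records; purple marks records called lower. All 4 EGFR records lie near 0, while the 7 NRG1 records lie to the left of 0, from -0.17 to -2.63.

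Genes that release the ligands were mixed, with 1 of 11 higher (9.09%, beside 13.1% of all genes), 1 lower (9.09%, beside 16%) and 9 not passed. ADAM17, the main sheddase of AREG, EREG, HBEGF and TGFA, had 2827, 2622 and 3424 in DCC-2036 replicates 1, 2 and 3, against 3392, 3484 and 3291 in control replicates 1, 2 and 3, and did not pass (-0.21 ± 0.16, limma adjusted p = 0.371). ADAM10, the sheddase of BTC and EGF, was lower by a log2 of -0.50 ± 0.15 (limma adjusted p = 0.0491). RHBDF2, the rhomboid-like protein iRhom2 that brings ADAM17 to the cell surface, was higher by 0.70 ± 0.16 (limma adjusted p = 0.0201), and RHBDF1, its relative, did not pass (-0.39 ± 0.16). The ADAM10 call was lost without any one array, at -0.56, -0.40 and -0.54 without DCC-2036 replicates 1, 2 and 3 and -0.48, -0.49 and -0.53 without control replicates 1, 2 and 3, and on centring each array (-0.51) or normalizing again (-0.45). The RHBDF2 call was lost on leaving out treated replicates 2 (0.68) or 3 (0.69) or control replicates 1 (0.61) or 3 (0.66).

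Of 26 receptor-proximal adaptors and effectors, 6 rose (23.1%, beside 13.1% of all genes), 2 fell (7.69%, beside 16%) and 18 did not pass. The higher genes with the smallest p were PIK3R3 and PIK3R2, regulatory subunits of PI3-kinase, at 1.92 ± 0.21 and 1.28 ± 0.16, and SHC3, an SHC-family adaptor, at 1.63 ± 0.20. SHC3 had 2079, 2141 and 2034 in DCC-2036 replicates 1, 2 and 3, against 514, 823 and 718 in control replicates 1, 2 and 3. PTPN11, the phosphatase SHP2 that carries receptor signals to RAS, had 1265, 1103 and 1031 in DCC-2036 replicates 1, 2 and 3, against 2738, 2769.8 and 2775 in control replicates 1, 2 and 3, a fall of -1.29 ± 0.14 on the log2 scale (limma adjusted p = 0.00218). The other lower gene was PIK3CA, the catalytic subunit p110-alpha, at -0.99 ± 0.18, named after its value was seen. GRB2, the adaptor that links EGFR to SOS, was 0.60 ± 0.18 and just missed the threshold (limma adjusted p = 0.0513). The count of higher genes was 3 without DCC-2036 replicate 2 or any one of the 3 control replicates.

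In the RAS-RAF-MEK-ERK core, 4 of 11 genes rose (36.4%, beside 13.1% of all genes), 0 fell (beside 16%) and 7 did not pass. HRAS, a RAS GTPase, was 1.15 ± 0.15 higher, MAP2K2, the kinase MEK2, 0.95 ± 0.18 and ARAF, a RAF kinase, 0.54 ± 0.13. BRAF did not pass, at -0.02 ± 0.23. The ARAF call was lost without any one array except control replicate 2, at values of 0.54, 0.55 and 0.53 without DCC-2036 replicates 1, 2 and 3, 0.50 without control replicate 1 and 0.52 without control replicate 3.

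Of 18 inhibitors, phosphatases and ubiquitin ligases of the receptors, 5 fell (27.8%, beside 16% of all genes), 1 rose (5.56%, beside 13.1%) and 12 did not pass. The median log2 change was -0.46, against 0.02 over all genes. ERRFI1, the EGFR inhibitor MIG6 whose transcript is induced by receptor signalling, had 4200.5, 5539 and 5099.5 in DCC-2036 replicates 1, 2 and 3, against 10786, 13242 and 10425 in control replicates 1, 2 and 3. All treated values lay below all controls, at -1.22 ± 0.18 (limma adjusted p = 0.00487). NEDD4, a ubiquitin ligase, fell by -1.33 ± 0.14, with its second record at -1.31 and also lower, RNF41, the ligase NRDP1 of ERBB3, by -1.12 ± 0.19, and SOCS4, a suppressor of cytokine signalling, by -1.42 ± 0.26. PTPRK, a receptor phosphatase, was -0.60 ± 0.14, and lost its call without any one array but control replicate 3 (-0.58, -0.63 and -0.59 without DCC-2036 replicates 1, 2 and 3, -0.52 and -0.61 without control replicates 1 and 2). SOCS4 and PTPRK were named after their values were seen. PTPRJ, another receptor phosphatase, was the higher gene (0.89 ± 0.16). CBL, the main ubiquitin ligase of EGFR, did not pass (-0.46 ± 0.27).

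Of 17 endocytosis and sorting genes, 6 rose (35.3%, beside 13.1% of all genes), 2 fell (11.8%, beside 16%) and 9 did not pass, and the median log2 change was 0.25, against 0.02 over all genes. EPN1, the clathrin adaptor epsin 1, had 5743, 6206 and 5909 in DCC-2036 replicates 1, 2 and 3, against 1373, 1942 and 2082 in control replicates 1, 2 and 3 (1.75 ± 0.19, limma adjusted p = 0.00222). HGS, the ESCRT-0 subunit HRS that sorts ubiquitinated receptors, was 1.08 ± 0.17 higher, EPS15L1, an EPS15-related clathrin adaptor, 1.03 ± 0.19 and RIN1, an exchange factor of RAB5, 0.86 ± 0.14. The lower genes were STAM, the partner of HGS, at -0.86 ± 0.17, and TSG101, an ESCRT-I subunit, at -0.60 ± 0.16, both named after their values were seen. TSG101 lost its call without DCC-2036 replicates 1 (-0.50) or 2 (-0.60) or control replicates 1 (-0.60), 2 (-0.59) or 3 (-0.62), leaving 1 lower. Over the 6 lists together, 19 of 88 measured genes rose (21.6%, beside 13.1% of all genes) and 11 fell (12.5%, beside 16%). Without control replicate 1 or control replicate 3 the number that rose was 11.

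**Figure D4:**
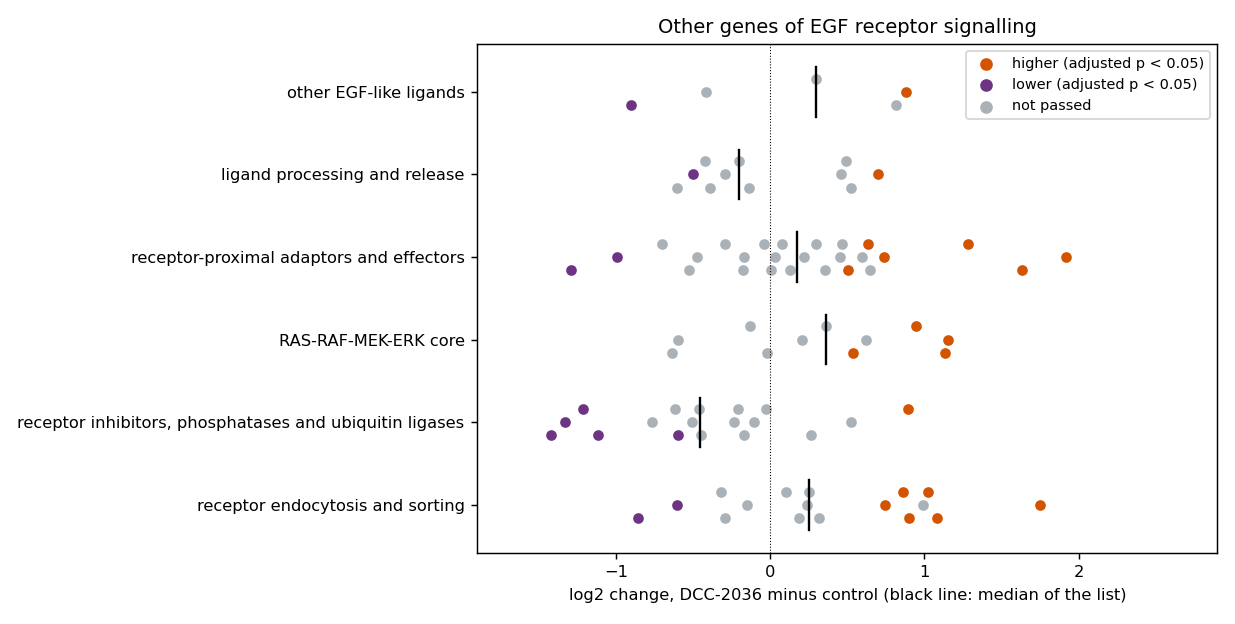
Log2 change (DCC-2036 minus control) of 88 other genes of EGF receptor signalling in 6 lists, 1 point per gene; colours mark calls at an adjusted p of 0.05 and black lines the median of each list. The inhibitor list has 5 lower and 1 higher of 18 genes, and the RAS-RAF-MEK-ERK core 4 higher and 0 lower of 11. Over all genes, 16% were called lower and 13.1% higher.

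Other genes were ranked by how near their pattern over the 6 arrays was to that of AREG, as the root mean square difference of log2 values after centring each gene on its own mean. Among the 5 nearest were MASTL, a mitotic kinase (0.16), CEP55, a protein of abscission (0.16), GINS4, a subunit of the replicative helicase (0.17), and SKA3, a kinetochore protein (0.17). MASTL had 227, 229.9 and 279 in DCC-2036 replicates 1, 2 and 3, against 2683, 2713 and 2106 in control replicates 1, 2 and 3, with no overlap. All 5 fell, with log2 changes from -3.43 to -3.08. Within the family EREG (0.65) was nearest to AREG, at place 210 among all genes, and HBEGF (0.75) followed at place 325, while the other 7 members lay at 1.50 to 2.02. This likeness is set mainly by the difference between the groups, which all of these genes share.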

How the data were processed

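Total RNA of each culture was copied with an oligo dT primer into double-stranded cDNA, labelled with Cy3 and put on 1-colour NimbleGen arrays, per the labels' protocols. The authors deposited 1 intensity per transcript record and array, made with RMA, per the submitters' processing notes. Values ran from 8.03 to 65365, a linear scale, and were used as deposited. Slides and scan times were not given, so batches were not tested; the background method and genome build are likewise not stated here. The platform's annotation named 18188 records and RefSeq accessions (GRCh38.p14) 678 more; 26167 stayed unnamed, 0 had several symbols.

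The test used log2(intensity + 1), and limma 3.58.1 under R 4.3.3 (a two-sided moderated test with no covariate) was fitted to all 17185 genes, with Benjamini-Hochberg adjustment and a threshold of 0.05; single records were fitted over all 45033. Errors of log2 changes are limma's standard errors. 3 arrays per group limit the precision. The fit was tested on simulated data. Genes named were all 10 members, up to 4 genes per list with the smallest p, BRAF and the 5 nearest to AREG, and others, among them markers and the neighbour CXCL2, chosen after values were seen. A few genes within this rule are left unreported. No set test was used. Members, lists and tests were chosen with earlier results of these data known. Labels give shared replicate numbers; same-numbered arrays did not deviate together (correlations across genes of -0.08, 0.04 and -0.09), so no block was used. ADAM9 and SHC2 were listed but not analysed here. Names and figures were handled in Python 3.11.15 (pandas 2.3.3, matplotlib 3.10.9).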

Additional observations from a re-analysis of the deposited data

How the results depend on the processing

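The falls of AREG, EREG and HBEGF passed in every alternative that measured them (16, 15 and 16 settings). Their log2 changes were -3.40 to -3.14, -2.45 to -1.80 and -1.93 to -1.77. These counts include settings that repeat the main log2 changes. Each gene has 1 record, so the mean of a gene's records and the second brightest record could not alter its values. The filters on dim records also left the values unchanged and used the mean over both groups. With the dimmest 25% left out, EREG stayed through its control mean (146), its treated mean being 30.8. AREG stayed above the median through its control mean (1847), its treated mean being 189. EREG has no value when the dimmer records (below the median) are left out. The count of 3 lower members was 2 in that setting and 3 in all others run, including each single-array omission, and 0 higher became 1 (BTC) without control replicate 2. EGFR, ERBB2, ERBB3, ERBB4, TGFA and EGF passed in no setting. With the replicate number as a block (replicate block), counts over all genes were 1376 higher and 1793 lower, 12 of the listed pathway genes were higher, and the numbers were 0 higher for the other ligands, 0 higher and 0 lower for ligand release, and 1 lower for endocytosis. Leaving out single arrays gave 1421 to 1886 genes higher and 1721 to 2307 lower, with the fewest higher and lower without control replicate 1 and 1463 higher without DCC-2036 replicate 2. It gave 11 to 16 pathway genes higher, 0 to 1 other ligands higher, 0 to 1 release genes higher and 0 to 1 lower, 3 to 5 adaptors higher, and 1 to 2 endocytosis genes lower. Filtering away the dimmest 25% of records, or all below the median, gave 17 pathway genes lower in both, 0 other ligands higher, 2 release genes higher and 3 or 4 lower, and 4 adaptors lower, with fewer genes tested. With 16 added before the log there were 0 other ligands and 2 release genes higher. The trend and robust variance gave 0 other ligands higher, 3 release genes higher and 3 lower, and 4 adaptors lower. Repeated quantile normalization, median centring and the second brightest record each gave 0 release genes lower, and the second brightest record 1 lower in the RAS-RAF-MEK-ERK core. Of 49 genes checked, 35 kept their side of the threshold and direction of any call throughout. Dim signal limits EREG (treated), BTC, EGF, ERBB4, NRG4 and the NRG1 record that fell the most (treated).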
